A study of Mus musculus with 4 samples.

Results

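A cell that divides copies its DNA in S phase, prepares in G2 and separates the copies in mitosis, and the genes followed here are the 38 whose products are made for those last 2 steps. They encode cyclin-dependent kinase 1 (Cdk1) and its partners, the kinases that check the spindle, the anaphase-promoting complex that ends mitosis, centromere and spindle proteins, and the proteins that build chromosomes and pinch the cell apart. Their transcripts build up in G2 and are removed after mitosis, so a marrow cell that carries them is, as a rule, one that is dividing or about to divide. In marrow, dividing cells are found mainly among progenitors and precursors, while mature neutrophils and resting lymphocytes have left the cycle.

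The members were the rows of the 4 gene-by-cell tables whose symbol was one of the 38 names, and each of the 38 was found among 31053 genes. The study compared marrow mononuclear cells of C57BL/6 mice without functional Toll-like receptor 9 (TLR9-/-) and of wild-type (WT) mice, with 2 libraries per genotype from separate mice. The 5′ ends of transcripts were sequenced and unique molecular identifiers (UMIs) counted, with 1 tag a molecule, so that levels of genes need no division by length. Each of 2 experiments held a mouse of either genotype. The labels give no age and do not say whether the numbers 1 and 2 mark the same experiment in both genotypes. The deletion was present in all cells of the mouse, so a difference in one cell class cannot be assigned to TLR9 in that class.

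After filters, 39167 cells were kept, 8895 to 10781 per library. Depth differed with genotype. TLR9-/- libraries 1 and 2 had medians of 2545 and 3618 UMIs per cell, WT libraries 1 and 2 of 1759 and 2287. Tlr9, the targeted gene, held 41 and 48 UMIs in the TLR9-/- libraries against 120 and 97 in the shallower WT libraries, so it was lower but not at 0; whether these tags lie outside the deleted part is not given in the sources used here. Pairs of libraries shared 112 to 185 cell barcodes. Cells were clustered after the cell cycle genes had been set aside, so the members had no part in the clusters, and 25 classes were named from marker genes (every name below means cells like that type by these markers). Of 38 clusters, 12 with 7.07% of cells stayed unnamed, 10 of them because over 50% of their cells were marked as doublets.

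To make cells of different depth comparable, each was thinned at random to 1000 UMIs and counted as dividing if at least 3 of these UMIs fell on members. The count is a cut through a range and not a cell type: in each library 462 to 588 cells had 2 UMIs and 344 to 415 cells had 3. Cells with fewer than 1000 UMIs were left out, 466 and 1897 in the TLR9-/- libraries 2 and 1 and 1156 and 2713 in the WT libraries 2 and 1. Leaving them out can itself move a share, and unevenly between libraries and classes. Mature neutrophils, which do not divide, were taken as the background of the count. Its source, such as free RNA, was not tested. In Mmp8+ Ltf+ neutrophils (median 2358 UMIs) 0.663% ± 0.652 of cells passed (SD, n = 4 libraries), and in Il1b+ Cxcr2+ neutrophils (median 1050 UMIs) 1.57% ± 1.36. Of the latter, WT library 1 kept 39 of 140 cells after thinning. Ighd+ B cells, at 1.60% ± 0.807, were at that background.

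Of the 23 classes reported, erythroid cells had the highest shares. In Isg15+ erythroblasts, described further on, 91.5% ± 7.26 of cells counted as dividing (n = 4). In Klf1+ erythroid progenitors, named by a master regulator of the red cell program, 91.0% and 92.1% of TLR9-/- cells and 91.4% and 90.9% of WT cells did so (libraries 1 and 2 of each genotype, in this order throughout). The earlier Car1+ erythroid progenitors were lower and spread more, with 50.6% and 67.2% against 67.0% and 72.2%. The most mature erythroid class, marked by Bpgm, an enzyme that adjusts oxygen release from hemoglobin, stood at 17.9% ± 4.51 (n = 4). The libraries of the Car1+, Klf1+ and Bpgm+ classes did not overlap with each other.

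Among B lineage cells the highest share was in Myl4+ precursors, with 80.0% and 81.9% in TLR9-/- and 79.5% and 80.8% in WT. Igll1+ precursors, which make the surrogate light chain of the pre-B cell receptor, stood at 41.7% ± 3.77 and Rag1+ precursors, which rearrange their receptor genes, at 22.1% ± 6.59 (n = 4). Of the Rag1+ cells many were too shallow to count, 849 of 1241 in WT library 1. In that library 31.4% counted as dividing after thinning, but 10.9% of all its Rag1+ cells had 3 or more member UMIs unthinned. Thinning can only lower the count of a cell, so leaving out shallow cells raised this share. Ms4a1+ Ighd-low B cells gave 11.1% on average with a range of 3.92% to 20.2%.

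Among myeloid cells, Fcnb+ Camp+ neutrophil precursors had 58.5% ± 5.30, F13a1+ monocytes 56.2% ± 1.90, Ly6c2+ Mpo+ progenitors 50.3% ± 3.18 and Elane+ Mpo+ progenitors 49.2% ± 5.50 (n = 4). Later Ltf+ Camp+ neutrophil precursors had 33.5% ± 6.64, and the Mmp8+ neutrophils that follow them were at background. Apoe+ Ccr2+ monocytes were at 4.21% ± 1.78, so that the monocyte classes differed by more than the spread between libraries. The class of hematopoietic stem cells and multipotent progenitors (HSC and MPP) stood at 27.2% ± 6.23. Its leading genes were Cd34, Egfl7, Myl10, Dntt, Ifitm1, Ctla2a and Flt3, of which Dntt is also on the list of pro-B markers. Flt3 was at 113 to 216 CPM in its libraries and Mecom at 5.95 to 7.68, so the name does not mean stem cells alone. Conventional dendritic cells (cDCs) had 31.1% ± 3.63, basophils 25.5% ± 4.43, NK cells 11.9% ± 6.98, plasmacytoid dendritic cells (pDCs) 9.71% ± 1.66 and T cells 5.49% ± 0.797. Of the 22 neighbours in the order of the 23 classes, 7 kept their order in all 4 libraries and 4 had ranges that did not overlap. The levels that separate were those of Klf1+ progenitors from Myl4+ precursors, Myl4+ precursors from Car1+ progenitors, F13a1+ monocytes from Ly6c2+ Mpo+ progenitors, and pDCs from T cells. The separation of the F13a1+ and Ly6c2+ Mpo+ classes depended on the threshold: they overlapped with 2 UMIs as the minimum. The Ly6c2+ Mpo+ class was the higher at 2000 UMIs (67.8% to 78.1% against 66.3% to 71.4%, with overlap) and unthinned (98.3% against 75.8%). Likewise, pDCs and T cells overlapped with 2 UMIs as the minimum (8.87% to 16.5% against 9.12% to 12.7%) and at 2000 UMIs. With the cycle genes in the clustering, pDCs lay below T cells (2.10% against 5.13% on average). Klf1+ progenitors and Myl4+ precursors overlapped with 5 UMIs as the minimum (69.7% to 76.1% against 66.1% to 70.97%). When the cycle genes took part in the clustering, the mean share moved by over 1.5 times in 6 of the 23 classes, and Mmp8+ neutrophils were not named. Ltf+ Camp+ precursors then stood at 1.19% to 2.23%, Rag1+ precursors at 1.97% to 7.35%, cDCs at 3.24% to 8.80%, pDCs at 1.23% to 3.38%, Apoe+ Ccr2+ monocytes at 5.90% to 8.55% and F13a1+ monocytes at 87.15% to 92.3%. The same name can cover other cells in the 2 clusterings. With the cycle genes, the Ltf+ Camp+ class led with Ifitm6, Ly6g, Mmp9, Ltf and AA467197 or Mmp8, and Fcnb+ Camp+ precursors held 1226 cells against 582. In the main setting, the shares of these 6 classes are those of cells grouped without regard to the cycle.

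**Figure D1:**
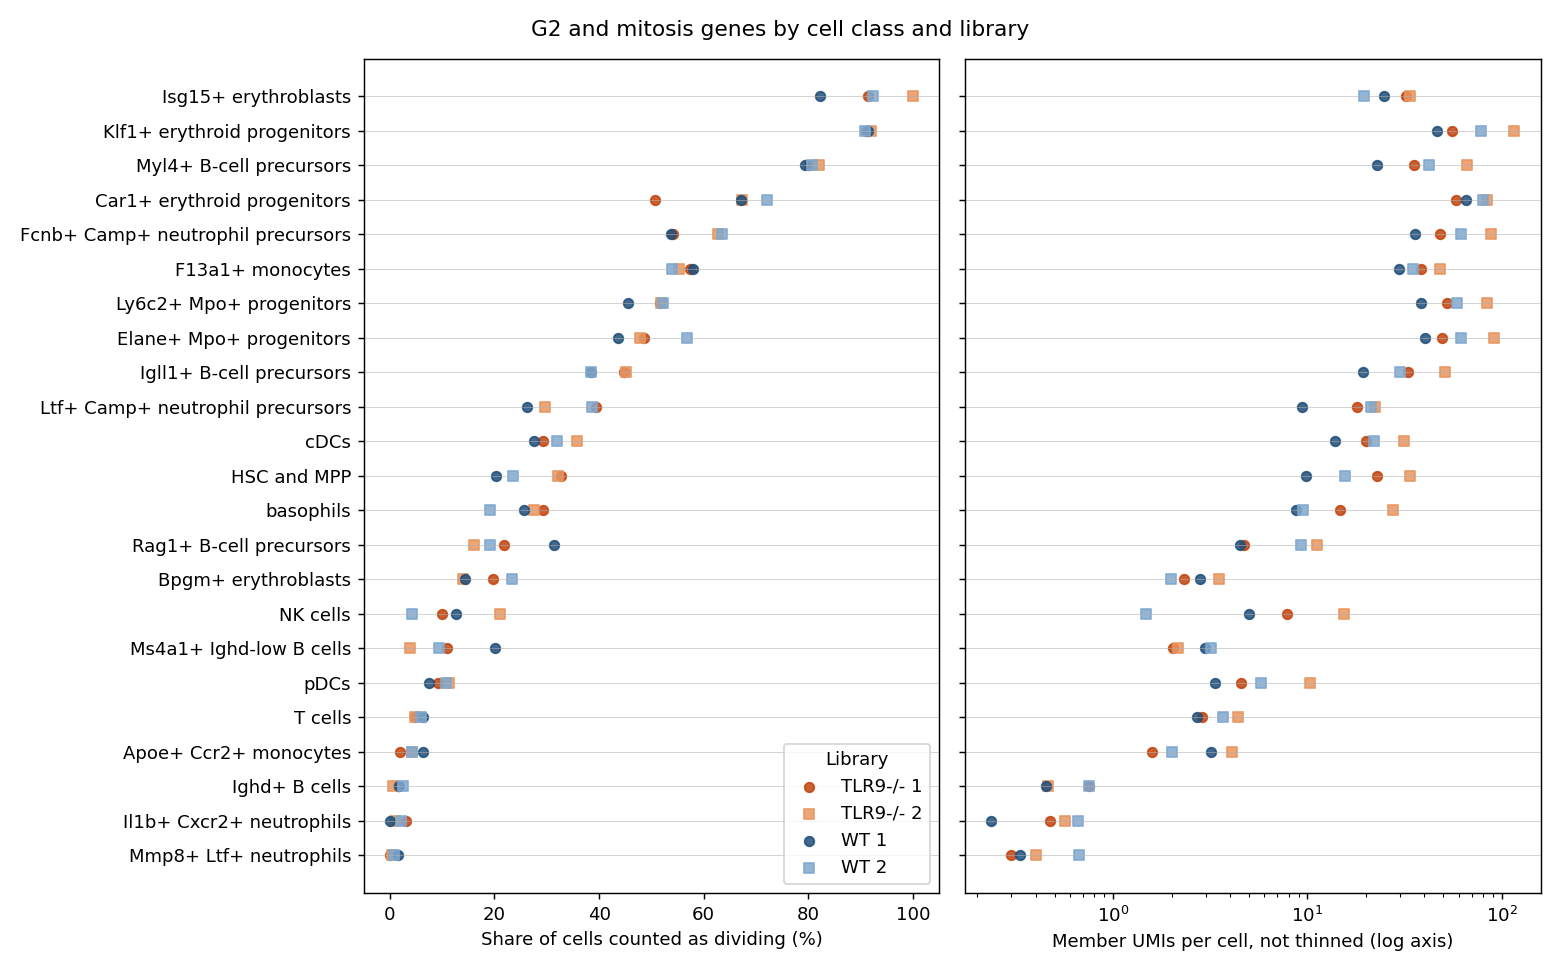
Each row is 1 of the 23 cell classes reported and each point a library, with the share of cells with 3 or more member UMIs after thinning to 1000 UMIs on the left and the member UMIs per cell without thinning, on a log axis, on the right. Klf1+ erythroid progenitors lie between 90.9% and 92.1% on the left, whereas on the right progenitors such as the Elane+ Mpo+ class, at 49.2% on the left, reached 60.8 UMIs per cell on average.

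Which class ranked highest depended on whether the members were counted per RNA or per cell, and counts per cell rise with depth. Levels are given as CPM, the UMIs on a gene or on all members scaled to the same sum of UMIs in each class and library. Isg15+ erythroblasts held 14890 CPM on all members after thinning in TLR9-/- library 1 and 12550 CPM in WT library 1. In Elane+ Mpo+ progenitors, which make the granule proteins elastase and myeloperoxidase, the same quantity was 3163 and 2968 CPM. These progenitors are large, with a median of 17330.0 UMIs per cell against 1299 in Isg15+ erythroblasts (means of 4 libraries). Counted per cell without thinning, the Elane+ Mpo+ class held 60.8 ± 22.2 member UMIs and Isg15+ erythroblasts 27.6 ± 6.66, and their libraries did not overlap. Klf1+ progenitors held 73.9 ± 31.0 member UMIs per cell, which overlapped with the Elane+ Mpo+ class. Unthinned, 97.0% of Elane+ Mpo+ cells and 98.3% of Ly6c2+ Mpo+ cells had 3 or more member UMIs. The unthinned share of HSC and MPP was 57.3%, and that of the 2 neutrophil classes 1.32% and 2.58%. These neutrophils had medians of 2358 and 1050 UMIs, so they give no background for deeper classes without thinning. Unthinned shares rise with depth and do not order the classes by division. Thinned shares have a limit too, since they count members as a part of a cell's RNA. Car1+ progenitors (median 17300 UMIs) held 71.8 ± 12.1 member UMIs per cell unthinned. Myl4+ precursors (median 3364 UMIs) held 41.7 ± 18.0, with overlap, although their thinned share was the higher. The order of thinned shares is therefore one of members per RNA.

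**Figure D2:**
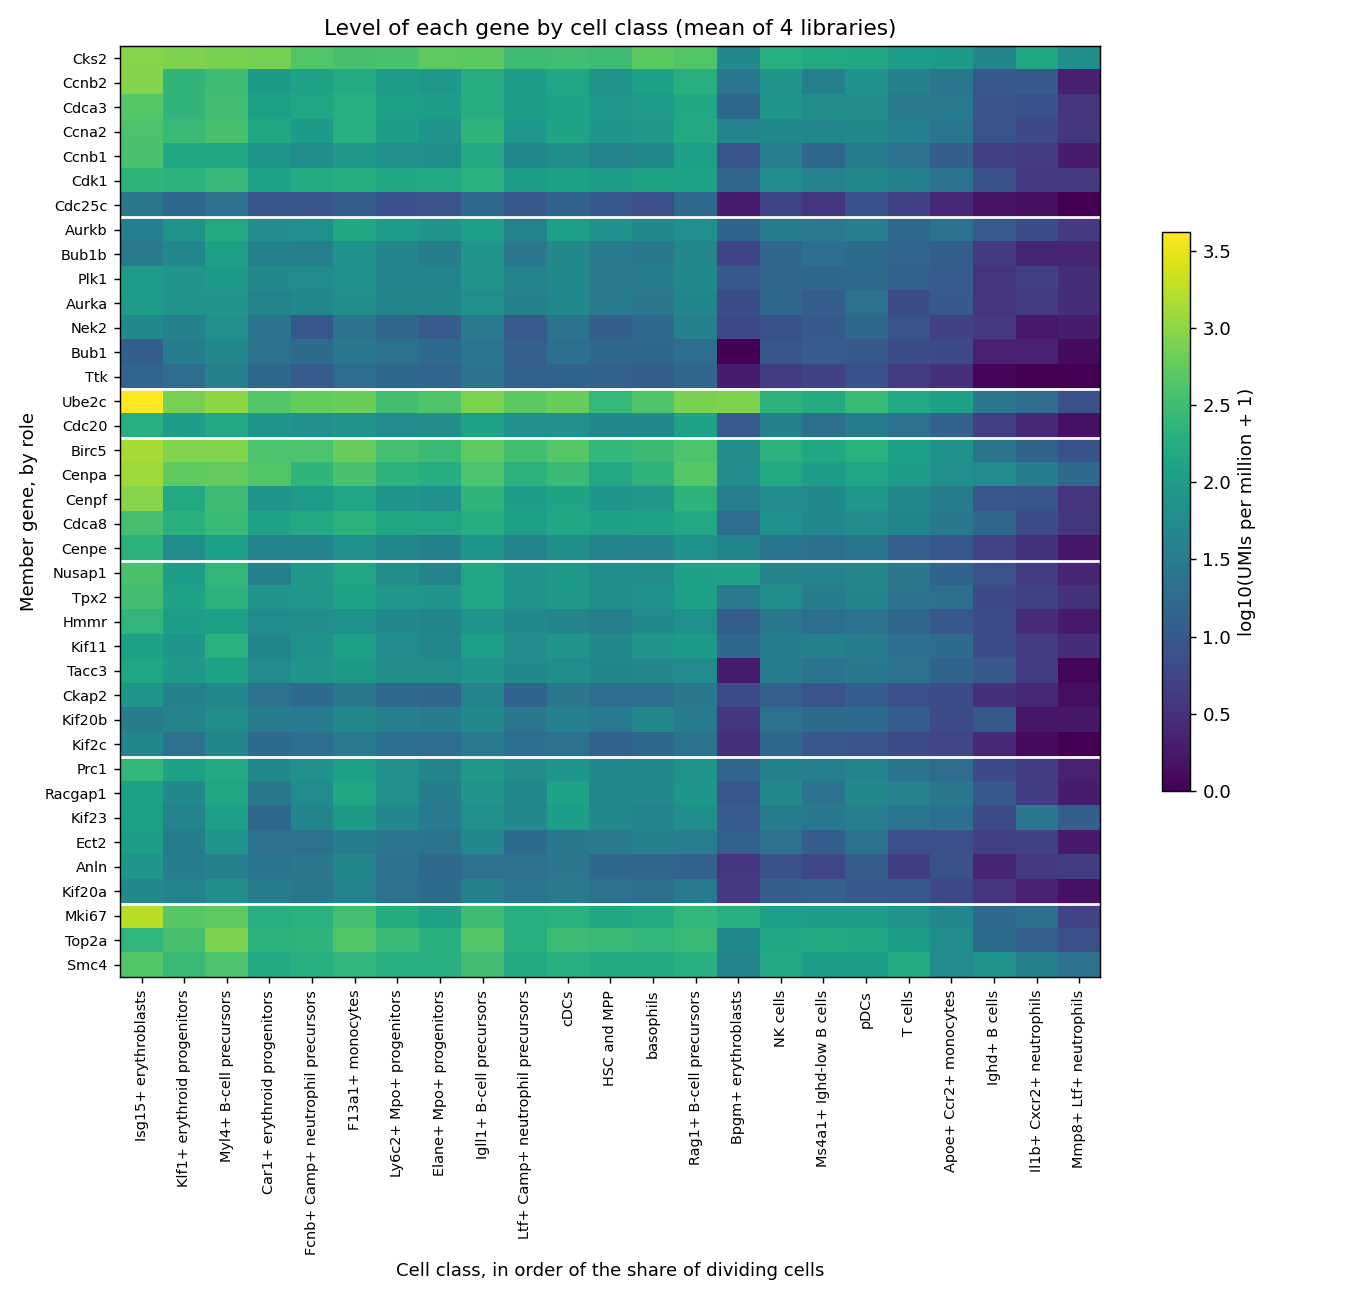
Rows are the 38 genes in 7 groups by role, divided by white lines, columns are the 23 cell classes reported, from the highest to the lowest share of dividing cells, and color is log10(CPM + 1), as the mean of 4 libraries. Levels are mostly lower toward the right, but they do not fall class by class. All members together took 4224 CPM in Car1+ progenitors and 6253 CPM in Igll1+ precursors, which stand further right. Ube2c in Isg15+ erythroblasts, at 4176 CPM, is the highest value.

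Among the 23 classes, each of the 38 genes had its highest level in 1 of 2: 26 genes peaked in Isg15+ erythroblasts and 12 in Myl4+ B-cell precursors, by the mean of 4 libraries. The same class led in all 4 libraries for 20 of the 38 genes, in 3 for 8, in 2 for 8 and in 1 for 2, Tacc3 (134 ± 109 CPM) and Kif23 (113 ± 85.3), both in Isg15+ erythroblasts, of which the libraries numbered 2 held 36 and 26 cells. The promoters of the members, which the choice of genes did not use, were read next. Promoters of 32 members were found in the RefSeq table (build GRCm38.p6, 250 bases before to 50 after the start), and 6 were not matched: Ccna2, Cdc25c, Aurkb, Tpx2, Kif20a and Smc4. The cell cycle genes homology region, a motif written TTTGAA and known as the site of complexes that keep such genes silent outside G2, was searched on both strands. A gene with several listed starts counted if any of them held the motif. It stood in 24 of the 32, or 75.0%, against 20.2% of 27025 genes in the table and 19.0% of 42 S phase genes. CCAAT, the box of the factor NF-Y, also on both strands, stood in 81.2% of the members, 41.1% of all genes and 61.9% of the S phase genes. Both motifs, searched separately so that they may share letters, stood in 65.6% of the members, 7.97% of all genes and 14.3% of the S phase genes. These are counts of letters, not of bound sites.

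The 120 bases just before the start are printed for 6 members, with TTTGAA, its variant TTCGAA, and CCAAT boxes, on either strand, in capitals. The 6 do not stand for all members, and the counts above also cover bases outside this window. Ccnb1 is shown as one with CCAAT boxes but no TTTGAA in the window. Most members with a matched promoter had no TTTGAA there, among them Aurka, Plk1, Birc5, Cenpa, Hmmr, Kif23 and Cks2, which are not printed.
Cdk1, chr10:69352913-69353032 (- strand): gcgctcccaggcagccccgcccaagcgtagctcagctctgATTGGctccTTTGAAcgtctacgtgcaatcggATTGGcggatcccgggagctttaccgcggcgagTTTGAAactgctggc
Ube2c, chr2:164769809-164769928 (+ strand): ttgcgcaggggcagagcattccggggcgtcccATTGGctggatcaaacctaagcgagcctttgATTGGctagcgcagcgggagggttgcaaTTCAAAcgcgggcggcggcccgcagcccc
Cdc20, chr4:118437344-118437463 (- strand): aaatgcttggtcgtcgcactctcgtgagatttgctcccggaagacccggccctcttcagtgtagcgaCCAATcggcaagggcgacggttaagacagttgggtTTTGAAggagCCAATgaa
Top2a, chr11:99024190-99024309 (- strand): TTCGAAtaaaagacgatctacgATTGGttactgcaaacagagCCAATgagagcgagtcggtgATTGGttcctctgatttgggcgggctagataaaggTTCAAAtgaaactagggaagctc
Mki67, chr7:135716380-135716499 (- strand): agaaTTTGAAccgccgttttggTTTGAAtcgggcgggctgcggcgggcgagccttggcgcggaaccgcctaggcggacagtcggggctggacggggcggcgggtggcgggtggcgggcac
Ccnb1, chr13:100786487-100786606 (- strand): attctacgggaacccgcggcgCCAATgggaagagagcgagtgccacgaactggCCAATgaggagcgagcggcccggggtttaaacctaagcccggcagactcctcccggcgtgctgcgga
Each stretch lies upstream of the gene's first exon. Cdk1 carried 2 TTTGAA and 2 CCAAT motifs in this stretch, Ube2c 1 and 2, and Cdc20 1 and 2. Top2a carried 1 TTTGAA, 1 TTCGAA and 3 CCAAT, and Mki67 2 TTTGAA and no CCAAT.

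Of Cdk1 and its partners, Cdk1 itself, the kinase that starts mitosis, was at 146 and 157 CPM in the whole marrow in TLR9-/- and 148 and 133 in WT. In such sums over the marrow, fewer cells of a type and less RNA per cell cannot be told apart. Among the classes reported, Cdk1 was highest in Myl4+ B-cell precursors, at 257 ± 23.5 CPM (SD, n = 4), but this class led in 2 of the 4 libraries and Isg15+ erythroblasts came next at 223 CPM. Cks2, a small subunit that binds Cdk1, was among the most abundant members, with 428 and 429 against 458 and 450. Ccna2, the cyclin of S phase and G2, was at 141 and 132 against 163 and 139, and Ccnb1, the cyclin of mitosis, at 78.3 and 77.4 against 88.0 and 72.6. In none of these did the genotypes' libraries separate, except for Cks2, which was lower in both TLR9-/- libraries.

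Ccnb1 was also the member with the smallest share outside dividing cells. When a cell was judged by the other 37 genes alone, 5.30% of Ccnb1 UMIs lay outside dividing cells, followed by Cdc25c, the phosphatase that switches Cdk1 on (6.21%), and Hmmr, a spindle protein (6.52%). At the other end stood Smc4, a condensin subunit (26.1%), Cks2 (20.7%) and Racgap1, a regulator of the dividing furrow (18.4%). All 38 genes lay between 5.30% and 26.1%. Per cell, Birc5 was found in 55.1% of dividing cells and 4.64% of others, and Ube2c in 50.6% and 3.74%, while Cdc25c was found in 2.26% and 0.0802%.

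Of the mitotic kinases, Plk1, which acts at centrosomes and kinetochores, had 44.9 and 53.2 CPM in TLR9-/- and 43.7 and 55.1 in WT. Aurkb, the kinase of the chromosomal passenger complex, had 86.5 and 85.7 against 72.8 and 66.0, and its libraries did not overlap. Aurkb peaked in Myl4+ B-cell precursors (157 ± 30.5), and so did Bub1, Bub1b and Ttk of the spindle checkpoint. Of the anaphase-promoting complex, Cdc20, its activator, had 68.0 and 79.1 against 66.5 and 72.6. Ube2c, the enzyme that hands ubiquitin to it, was the most abundant member, with 546 and 507 against 704 and 560.

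Of the centromere proteins, Birc5 (survivin) had 443 and 398 CPM against 530 and 442, and Cenpa, the histone that marks centromeres, 286 and 275 against 364 and 292. Among spindle proteins Hmmr had 58.3 and 49.8 against 65.8 and 65.2, and of the furrow proteins Kif23 had 49.4 and 48.0 against 50.7 and 61.7. For chromosome structure, Top2a, which untangles DNA, had 277 and 253 against 314 and 340, Mki67, which coats mitotic chromosomes, 206 and 230 against 272 and 336, and Smc4 191 and 209 against 202 and 231. Most of these lay lower in TLR9-/- marrow, with overlap for Birc5 and Smc4, and none passed the test given below. How many of all genes separate in the whole marrow was not counted. In 4 classes given below, 15.3% to 22.6% of genes did so in the direction counted. Separation of a single member, also of Cks2 and Aurkb above, therefore says little.

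The mixture of members differed between classes. Ube2c made up 25.1% ± 2.68 of member UMIs in Isg15+ erythroblasts, 10.7% ± 0.970 in Myl4+ B-cell precursors and 8.37% ± 1.25 in HSC and MPP. Top2a went the other way, with 1.49% ± 0.541, 8.59% ± 0.952 and 9.71% ± 1.04. Cks2 made up 17.1% ± 0.161 of member UMIs in Car1+ progenitors and 15.3% ± 1.22 in Elane+ Mpo+ progenitors, against 5.37% ± 1.05 in Isg15+ erythroblasts. In each of these, the ranges of the first and last class named did not overlap. A high part of Ube2c was not particular to Isg15+ erythroblasts among erythroid cells. Ube2c and Cdc20 together made up 48.6% ± 6.91 of member UMIs in Bpgm+ erythroblasts, against 26.3% ± 2.34 in Isg15+ erythroblasts. How far the dividing share of these classes rests on Ube2c alone was not tested.

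**Figure D3:**
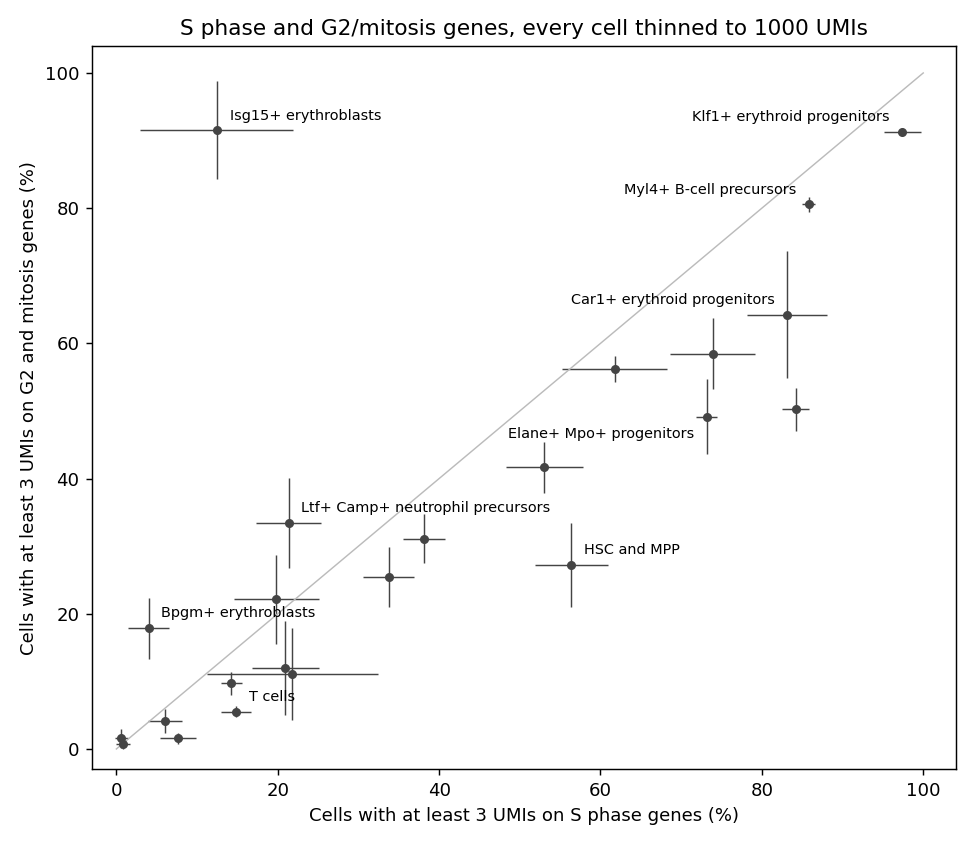
Each point is a cell class with the share of cells with at least 3 UMIs on S phase genes on the horizontal axis and on G2 and mitosis genes on the vertical axis, both after thinning to 1000 UMIs, as the mean of 4 libraries with bars of 1 SD; the line marks equal shares. Isg15+ erythroblasts lie at 12.5% and 91.5%, and Bpgm+ erythroblasts, also above the line, at 4.02% and 17.9%.

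Isg15+ erythroblasts had the late genes largely without the early ones. This class led by globins, Isg15 (an interferon-induced gene) and Alas2 (the first enzyme of heme synthesis) had 91.5% and 100% dividing cells in TLR9-/- and 82.3% and 92.3% in WT. Cells with at least 3 UMIs on 57 S phase genes made up 7.32% and 26.7% against 8.16% and 7.69%. Bpgm+ erythroblasts had the same order at a lower level, with 17.9% ± 4.51 of cells counted as dividing and 4.02% ± 2.52 past the S phase threshold. In Klf1+ progenitors the S phase share was 94.5% and 99.4% against 96.7% and 99.0%. The Isg15+ class was uneven between libraries: 533 of its 595 cells, or 89.6%, came from the 2 libraries numbered 1, and after thinning the libraries numbered 2 held 15 and 13 cells. Its cells were shallow, with a median of 1299 UMIs. The part of the library number in this pattern was not tested.

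HSC and MPP had more cells with the early genes than with the late ones, with 56.4% ± 4.48 of cells past the S phase threshold, 34.0% past it alone, and 27.2% counted as dividing. This order was not particular to them. Among the classes reported, the means had the other order only in Isg15+ and Bpgm+ erythroblasts, Ltf+ Camp+ and Rag1+ precursors and Il1b+ Cxcr2+ neutrophils. The S phase threshold covered 57 genes against 38, and its background was not given. Ighd+ B cells passed it at 7.64% ± 2.29. In Ly6c2+ Mpo+ and Elane+ Mpo+ progenitors 44.1% and 39.6% of cells passed the S phase threshold alone. Mybl2, a transcription factor that switches on G2 genes, was at 80.3 ± 11 CPM in Klf1+ progenitors, but at 2.61, 17.5, 1.63 and 0 in the libraries of Isg15+ erythroblasts. Foxm1, another such factor, was highest in Myl4+ precursors (65.6 ± 9.82). Btg2, which restrains the cycle, was at 712 ± 299 in Isg15+ erythroblasts and 646 ± 131 in Rag1+ precursors, against 6.18 ± 0.899 in Car1+ progenitors. Cdkn1b, the inhibitor p27, was at 232 ± 9.87 in Bpgm+ and 164 ± 43.9 in Isg15+ erythroblasts, against 9.72 ± 1.44 in Car1+ progenitors. Cdkn1c, an inhibitor known from resting stem cells, reached 3.38 ± 1.89 at most.

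In the whole marrow the share of dividing cells overlapped between genotypes, with 37.6% and 28.1% of TLR9-/- cells and 42.8% and 34.3% of WT cells. All members together took 4394 and 4274 CPM against 5010.0 and 4806, which did not overlap. The difference of the mean shares was -5.66 percentage points. Without thinning its sign turned, to 1.56 points, with TLR9-/- library 2 left out it was -0.885, and with WT library 1 left out -1.41. When every library was given the same makeup of classes (a calculation chosen after seeing the data), the shares were 36.3% and 34.9% against 35.6% and 35.9%, and the difference -0.164 points. The SDs of the 2 libraries were 6.76 and 6.02 points with each library's own makeup and 1.02 and 0.245 with the same makeup, so the difference lay within the spread in both cases.

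The classes among the dividing cells differed. F13a1+ monocytes made up 16.2% ± 1.26 of dividing cells in TLR9-/- marrow and 6.80% ± 0.665 in WT (n = 2 libraries each). Ly6c2+ Mpo+ progenitors made up 7.78% ± 0.310 against 2.11% ± 0.211, and HSC and MPP 4.48% ± 0.0856 against 1.53% ± 0.560. Myl4+ B-cell precursors were the reverse, at 9.56% ± 5.96 against 22.5% ± 2.31. In all 4 the libraries of the genotypes did not overlap. This was not particular to them. Elane+ Mpo+ progenitors, Igll1+ and Rag1+ precursors, cDCs and basophils, among others, did not overlap either, while Klf1+ and Car1+ progenitors and both neutrophil precursor classes did. Without any genotype difference such a separation is expected in a share of 0.333 of classes. The classes' shares of the cells deep enough to be thinned, dividing or not, moved the same way. They were 10.02% and 8.66% against 4.67% and 4.63% for F13a1+ monocytes, 5.52% and 4.34% against 1.845% and 1.49% for Ly6c2+ Mpo+ progenitors, 5.22% and 3.86% against 2.38% and 2.79% for HSC and MPP, and 6.48% and 1.83% against 13% and 8.86% for Myl4+ precursors. Within F13a1+ monocytes the dividing share was 56.4% ± 1.48 against 56.0% ± 2.92. With 2 libraries a genotype the smallest two-sided p of an exact permutation test is 0.333, so no test of a share was made.

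Member by member, edgeR's quasi-likelihood test with Benjamini-Hochberg adjustment called 0 of 38 members between genotypes in the whole marrow, where 0.268% of 14194 genes were called. The members with the lowest p-values were Nek2, Mki67 and Cenpf. Nek2, a kinase that splits centrosomes, had 17.8 and 17.5 CPM against 24.99 and 24.8, a log2 difference of -0.50 ± 0.12 (SE) with an edgeR adjusted p of 0.168. Of the 38, 32 were lower in TLR9-/- marrow with a median log2 difference of -0.16, beside -0.02 over all genes. In the 24 classes, 0 of 738 member tests were called, where 0.344% of 169333 gene tests were. At an unadjusted p under 0.05 were 9.35% of the member tests and 6.74% of all. By DESeq2's Wald test 0 members were called in the whole marrow, where 829 genes were. In the classes it called 1 member, Ube2c in HSC and MPP (DESeq2 adjusted p = 0.0247), among 484 calls over all genes. Members passing the filter on low counts numbered 38 in 13 of the classes and 3 or fewer in 2.

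In Myl4+ precursors the summed members took 9630 and 9909 CPM in TLR9-/- against 9044 and 9338 in WT, without overlap. Igll1+ precursors (6470 and 6754 against 5700 and 6088), F13a1+ monocytes, Isg15+ erythroblasts, cDCs and NK cells also lay above without overlap. In NK cells the lower TLR9-/- library stood at 2567 CPM and the higher WT library at 2541. The libraries numbered 2 held 64 and 55 NK cells, and 36 and 26 Isg15+ erythroblasts. Ms4a1+ Ighd-low B cells and Mmp8+ neutrophils lay below. The Klf1+, Car1+, Fcnb+ Camp+, Ltf+ Camp+, Ly6c2+ Mpo+ and Elane+ Mpo+ classes overlapped. Without any genotype difference such a separation is expected in a share of 0.333 of classes. None of these sums was tested. Gene by gene the members went both ways in several classes. In Klf1+ progenitors 18 members were higher and 20 lower in TLR9-/- cells, with log2 differences from -0.30 to 0.41. In Elane+ Mpo+ progenitors the values lay between -0.49 and 0.17, and in Myl4+ precursors between -0.23 and 0.49. Of the Myl4+ class, Aurka, the kinase of the spindle poles, had 88.1 and 93.7 CPM against 62.0 and 65.1, with an edgeR adjusted p of 0.505. The next lowest p-values there were those of Aurkb (log2 0.36 ± 0.19, edgeR adjusted p = 0.683) and Kif20a, a motor of the furrow (0.35 ± 0.19, edgeR adjusted p = 0.696).

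In HSC and MPP the members leaned to higher levels in TLR9-/- cells without passing the test. Together they took 3364 and 3629 CPM in TLR9-/- and 2185 and 2668 in WT, and 32.8% and 32.2% of cells counted as dividing against 20.3% and 23.6%. Of 38 members, 36 were higher, with a median log2 difference of 0.51, beside 48.2% of all genes higher with a median of -0.02. In 28 members both TLR9-/- libraries lay above both WT libraries, as did 20.2% of all genes tested. Called were 0 members and 0.311% of genes, and 19 members had an unadjusted p under 0.05. Over all class fits together 6.74% of gene tests had such a p. Its share in single fits is not given, here and in the classes below. Ube2c had 310 and 350 CPM against 162 and 191 (log2 0.89 ± 0.18, edgeR adjusted p = 0.110). Ccnb2, a mitotic cyclin, had 94.95 and 97.8 against 43.9 and 56.8 (0.91 ± 0.20, edgeR adjusted p = 0.158). Aurka had 42.9 and 43.7 against 15.4 and 23.9 (1.09 ± 0.25, edgeR adjusted p = 0.193). Top2a, with 299 and 318 against 227 and 288, and Mki67, with 139 and 183 against 105 and 170, differed less. Of 57 S phase genes 41 were higher, with a median of 0.10, and of 65 other G2 and mitosis genes 58, with a median of 0.34. None of these passed the test.

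Markers of other cells were also compared within the HSC and MPP class. Of 20 marker lists, 3 were higher and 4 lower in its TLR9-/- cells without overlap. Without any genotype difference such a separation is expected in a share of 0.333 of lists, so these counts say little. The 11 markers of granulocyte-monocyte progenitors summed to 5173 and 5276 CPM in its TLR9-/- cells and 3960.0 and 3365 in WT, and Mpo alone to 1120.0 and 1297 against 709 and 483. The 15 markers of the class itself summed to 1732 and 1874 against 1849 and 2078, with overlap. Genes of this list went both ways. Hlf, a stem cell factor, was at 47.0 and 42.1 against 48.3 and 64.2, and Ifitm1 at 677 and 688 against 572 and 625. The 13 markers of pro-B or large pre-B cells summed to 346 and 539.8 against 847 and 613. The part of these in the members' levels was not tested.

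**Figure D4:**
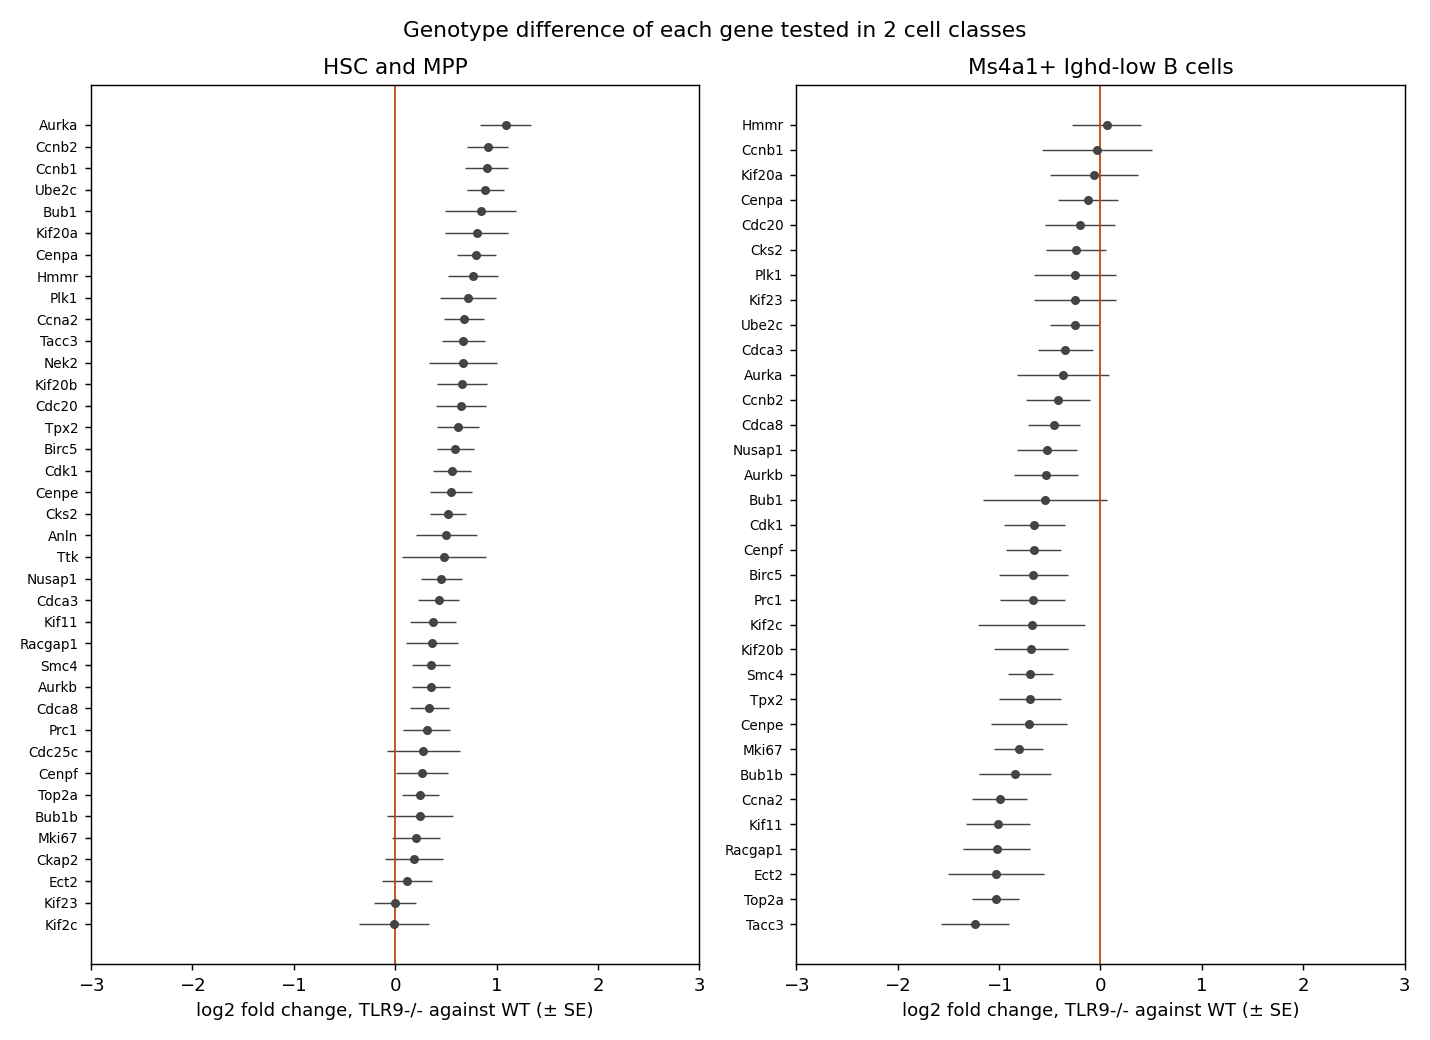
Each point is a member tested in HSC and MPP (left, 38 genes) or Ms4a1+ Ighd-low B cells (right, 33 genes), with its log2 fold change of TLR9-/- against WT on the horizontal axis and a bar of 1 SE. On the left 36 points lie right of 0 and on the right 32 lie left of it (19 of 30 with doublets left out), and none passed an adjusted p of 0.05.

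Basophils and pDCs leaned the same way. In basophils 35 of 36 members were higher, with a median of 0.48, and 25 had no overlap with TLR9-/- above (22.6% of all genes). Of the members 0 were called (0.185% of genes) and 8 had an unadjusted p under 0.05 (6.74% of gene tests over all class fits). Ccnb1 there had 63.6 and 83.6 CPM against 34.5 and 16.4 (1.42 ± 0.35, edgeR adjusted p = 0.272), Ube2c 486 and 619 against 315 and 245 (edgeR adjusted p = 0.272), and Aurkb 67.9 and 76.3 against 30.5 and 40.9 (edgeR adjusted p = 0.442). Markers of mature neutrophils summed to 10890.0 and 10210.0 CPM in these TLR9-/- basophils and 3663 and 6657 in WT, those of granulocyte-monocyte progenitors to 11490.0 and 13840.0 against 9526 and 7933, and those of basophils to 51150.0 and 56200.0 against 60110.0 and 64890.0. Of 20 marker lists, 4 were higher and 7 lower in TLR9-/- basophils without overlap. The share expected without a genotype difference is 0.333. The part of the marker levels was not tested. In pDCs 36 of 37 were higher, with a median of 0.46, and 14 had no overlap with TLR9-/- above (19.7% of all genes). Of the members 0 were called (0.316% of genes) and 7 had an unadjusted p under 0.05 (6.74% of gene tests over all class fits). Aurkb had 40.8 and 47.7 against 19.4 and 31.4 (edgeR adjusted p = 0.573), Ccna2 57.5 and 73.2 against 38.1 and 43.9 (edgeR adjusted p = 0.600), and Kif20a 10.9 and 16.2 against 5.03 and 6.27 (edgeR adjusted p = 0.607). The dividing share in pDCs did overlap, with 9.28% and 11.2% against 7.55% and 10.8%. The 12 pDC markers summed to 19350.0 and 20320.0 CPM against 18890.0 and 17770.0. Of 20 marker lists, 4 were higher and 6 lower in TLR9-/- pDCs without overlap, among them those of plasma cells (1271 and 1201 against 987 and 916), immature or mature B cells (15140.0 and 14270.0 against 14180.0 and 10650.0), pro-B or large pre-B cells (309 and 314 against 459 and 468) and HSC or multipotent progenitors (264 and 302 against 327 and 479.8). Here too a share of 0.333 of lists is expected to separate without a genotype difference. The part of these lists was not tested. With the cycle genes in the clustering, 6 of 14 members tested in pDCs were higher, with a median of -0.14, and without TLR9-/- library 2 the median was 0.15.

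Ms4a1+ Ighd-low B cells leaned the other way, but most of this went when cells marked as doublets were left out. Of 33 members tested, 32 were lower in TLR9-/- cells, with a median log2 difference of -0.65 beside -0.00482 over all genes, and in 20 both TLR9-/- libraries lay below both WT libraries, as did 15.3% of all genes. Called were 0 members and 0.19% of genes, and 10 members had an unadjusted p under 0.05 (6.74% of gene tests over all class fits). Top2a had 115 and 91.7 CPM against 213 and 204 (-1.03 ± 0.23, edgeR adjusted p = 0.218), Tacc3, a spindle protein, 14.1 and 14.1 against 32.5 and 32.8 (edgeR adjusted p = 0.453), and Ccna2 28.2 and 35.3 against 66.4 and 55.7 (edgeR adjusted p = 0.460). The share of dividing cells was 10.9% and 3.92% against 20.2% and 9.38%, which overlapped. Marked as doublets were 2.36% and 0.635% of these cells in TLR9-/- and 5.38% and 6.21% in WT. Without them 19 of 30 members were lower, with a median of -0.14, 0 had an unadjusted p under 0.05, all members together went from 1550.0 and 1199 against 2107 and 1874 CPM to 1293 and 1115 against 1554 and 1040.0, which overlapped, and the dividing share was 9.73% and 3.58% against 14.98% and 5.50%. With doublets kept, 1 of 55 S phase genes tested was higher, with a median of -0.61, and none passed the test. Doublets are also part of the marker sums that follow. There, of 20 marker lists, 4 were higher and 1 lower in TLR9-/- cells without overlap, beside a share of 0.333 expected without a genotype difference. The 16 markers of immature or mature B cells summed to 31880.0 and 35180.0 CPM against 27500.0 and 29060.0 without overlap, those of pro-B or large pre-B cells to 11730.0 and 13260.0 against 10220.0 and 10340.0, also without overlap, and those of small pre-B cells to 15080.0 and 17220.0 against 13290.0 and 17040.0, with overlap. The part of these in the members' levels was not tested.

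The wider cell cycle lists gave no call either. Of 65 other G2 and mitosis genes, 57 S phase genes, 22 transcriptional regulators and 20 inhibitors, none passed the test in any of the 25 fits. In the whole marrow Foxm1 had a log2 difference of -0.25 ± 0.14 (edgeR adjusted p = 0.410), Mybl2 of -0.25 ± 0.19 (0.551), Cdkn1b of -0.29 ± 0.19 (0.465), Cdkn1c of -0.04 ± 0.39 (0.970) and Btg2 of -0.44 ± 0.13 (0.206).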

How the data were processed

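Bone marrow mononuclear cells of 2 TLR9-/- and 2 WT mice were profiled with a droplet 5′ kit. The deposited files hold UMI counts per gene and cell, which the authors made with Cell Ranger and STAR on mm10, per the submitters' processing notes, which also name Seurat 2.3.4. Cells with 200 to 10000 genes and at most 10% mitochondrial UMIs were kept. Clusters (2000 variable genes without cycle genes, 30 components, 15 neighbours, Leiden resolution 1) were named from marker lists where a class led the top 10 genes by fold with at least 3 markers, or its lineage had 4 in the top 25, where no other lineage had 3, and where at most 50% of cells were marked as doublets. Doublets (0.8% per 1000 cells) were otherwise kept. Members, lists and finer classes were chosen with earlier results of these data known. Counts were summed per library and class with at least 20 cells in every library, and tested with edgeR 4.0.16 (quasi-likelihood, TMM, filterByExpr, adjusted p 0.05 over all genes of the fit), a test tried on simulated data. DESeq2 was 1.42.0. Named genes were 14 fixed members, the 3 with the lowest p in the whole marrow and in 5 classes described in detail, the extremes of the share outside dividing cells, and 5 regulators. Megakaryocyte progenitors (83 cells) were too few, and 1 other class is not reported here, although counts over the 24 class fits include it. Errors are SDs over libraries unless called SE. Because cells of a mouse are not independent, the library is the replicate.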

Additional observations from a re-analysis of the deposited data

Results flagged for a closer look

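In 3 of 23 classes both TLR9-/- libraries had a higher share of dividing cells than both WT libraries, and in 3 a lower one. Without any genotype difference such a separation is expected in a share of 0.333 of classes, which is more than 6 of 23. The 6 classes given here were picked from 23 because both TLR9-/- libraries lay on one side of both WT libraries. With 2 libraries a genotype such a separation has no p below 0.333 by an exact two-sided permutation test, and the differences between classes were not tested. The TLR9-/- mean lay above WT by 10.52 percentage points in HSC and MPP, 6.52 points in Igll1+ B-cell precursors and 6.04 points in basophils. The difference was -1.35 points in T cells, -1.07 points in Ighd+ B cells and -0.970 points in Mmp8+ Ltf+ neutrophils. The neutrophils were a class taken as background, and the Ighd+ B cells lay at that level. In T cells the difference turned to 0.705 points without thinning, and the Ighd+ B cells overlapped with doublets left out (1.51% and 0.507% against 1.45% and 2.47%). Igll1+ precursors overlapped when thinned to 2000 UMIs (71.5% and 62.7% against 68.8% and 61.2%). This class joined a cluster with a median of 2128 UMIs per cell and another with 10844.5.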

How the results depend on the processing

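Neither genotype comparison had a called member as analysed. In the whole marrow this count stayed at 0 under the other settings, except that the replicate block called 2 (Nek2 and Mki67, both lower in TLR9-/- marrow). Over the classes, 1 member was called by DESeq2's Wald test, 1 with doublets left out, 4 without the filter on low counts, 15 with the replicate block (8 of them in HSC and MPP, Ube2c at an adjusted p of 8.353e-06), and 0 to 11 with 1 library left out, while scaling, thinning and clustering with cycle genes gave 0. Leaving out WT library 1 gave the 11, 10 of them in NK cells; TLR9-/- library 1 gave 5 and TLR9-/- library 2 gave 3. In each of these fits 1 library stands alone for its genotype and is assumed to vary like the other genotype's, so these counts say little about stability. Over all genes the whole-marrow count of 38 became 829 by DESeq2, 605 without the filter, 1165 with the replicate block and 10 after thinning, and leaving out 1 library gave 58 to 88. Over all classes, 583 became 2075 without the filter, 3397 with the block and 118 after thinning, and 927 to 1350 with 1 library left out. Same-numbered libraries deviated together (r = 0.32 across genes in the whole marrow), but the labels do not say that a number marks an experiment, and with 2 pairs this is a hint from the data alone. The whole-marrow difference in dividing cells turned from -5.66 to 1.56 points without thinning; the cause was not tested. With 1 library left out it ranged from -10.4 to -0.885. Of the 4 reported classes with the highest shares, 1 stayed among the 4 highest without thinning. In basophils the difference turned to -0.865 points at 2000 UMIs, and in pDCs to -1.09 with 2 UMIs as the minimum and -2.10 at 2000 UMIs. Depth limits rare members, since a cell with fewer than 3 member UMIs among 1000 is not counted, and a p that misses the threshold does not show equal levels.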
